A study of Homo sapiens with 10 samples.

Results

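The 43 genes described here are a part of the amino acid stress response governed by the transcription factor ATF4. They fall into 15 regulators and stress effectors, 10 enzymes of amino acid and one-carbon synthesis, 6 amino acid transporters, and 12 genes of tRNA charging and export. They were chosen by name, and each gene was read from the probe set, annotated to that symbol alone, that had the highest mean score over the 10 arrays. Of the 43 genes, 42 had such a probe set. MARS1, the methionyl-tRNA synthetase, had only probe sets shared with another gene and has no value here. NUPR1, a small stress-induced chromatin protein, lay at or above its array's median on 1 array and was not tested, which left 41 members among 14529 tested genes.

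The study compared bortezomib-resistant (BR) cells with matched PT cells of HBL2 and JEKO, established human cell lines of mantle cell lymphoma, a tumour of mature B cells. Bortezomib inhibits the proteasome, and the labels describe resistance in the BR cells as induced by the drug. The labels give PT only as letters, and it is read here as parental from knowledge of the study. All RNA came from cells in logarithmic growth, and no acute treatment is named for any group. The arrays numbered 3 for HBL2 PT, 3 for HBL2 BR, 2 for JEKO PT and 2 for JEKO BR. Nothing in the labels says whether replicates were separate cultures or whether a BR line was 1 clone, so each p-value speaks of the spread among these arrays alone, part or all of which may be technical. The comparison is between established lines. With no acute treatment named, any drug still present in BR cultures cannot be told apart from a lasting difference. In bulk RNA, a change in the share of cells and a change in RNA per cell cannot be told apart.

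ATF4 is made when kinases such as GCN2, which senses uncharged tRNA, and PERK, which senses misfolded protein in the endoplasmic reticulum, phosphorylate the translation factor eIF2. This lowers general translation but favours translation of the ATF4 message, so ATF4 activity is set largely after transcription and its mRNA level is only a part of it. With C/EBP partners ATF4 binds composite elements in genes that make, import and charge amino acids, and in genes that later feed back on the response or lead to cell death. Proteasome inhibition is a known trigger of this pathway, because it blocks the recycling of amino acids and lets misfolded protein build up.

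The element that ATF4 and C/EBP proteins share has the core TGATGNAA, where N is any base, and it was searched for on both strands of the RefSeq promoter windows (GRCh38.p14), each of 300 bases from 250 before to 50 after an annotated start. A promoter entry was found for 36 of the 43 members, 57 promoters in all. A match was present in 14 member promoters of 14 different genes, 24.6% of the member promoters, against 1270 of all 35116 promoters, 3.62%. The members were chosen by name as genes of the ATF4 response. The higher share may follow from that choice and is given only as a description. The windows of the 5 genes that had a match and a called rise in HBL2 BR cells are shown 5′ to 3′ along the gene's strand, because they are 5 of the 6 genes that rose in that line. Capitals mark the match, which reads TGATGNAA on the gene's strand or its reverse complement.
ASNS: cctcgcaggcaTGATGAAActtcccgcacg
GARS1: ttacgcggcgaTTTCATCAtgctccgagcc
TARS1: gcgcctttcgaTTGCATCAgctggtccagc
CHAC1: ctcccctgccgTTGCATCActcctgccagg
ATF3: aaaggtcaggaTGATGGAAggctgtcatat
The ASNS window lies at chr7:97872458-97872487 on the minus strand, and its match begins 68 bases before the annotated start. The other windows lie on the plus strand. GARS1 is at chr7:30594834-30594863, with the match beginning 33 bases before the start. TARS1 is at chr5:33440956-33440985, where the match lies just past the start. CHAC1 is at chr15:40953251-40953280, with the match beginning 209 bases before the start, and ATF3 is at chr1:212565205-212565234, with the match beginning 191 bases before. ASNS, GARS1, TARS1 and ATF3 each have another annotated start whose window holds no match.

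TTGCATCA, the reverse complement of TGATGCAA, was the commonest form among the members. It also stood in the windows of AARS1, CARS1, IARS1 and MARS1, 4 further tRNA synthetase genes. The opposite reading stood in CEBPG, SLC1A5 and NARS1.
CEBPG: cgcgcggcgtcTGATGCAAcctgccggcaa
IARS1: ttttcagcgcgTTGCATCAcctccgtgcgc
SLC1A5: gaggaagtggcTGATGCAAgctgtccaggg
These 3 windows are shown for contrast, since their genes hold the same 8 letters and were not called in either line. CEBPG is at chr19:33374060-33374089 on the plus strand, IARS1 at chr9:92293692-92293721 on the minus strand, and SLC1A5 at chr19:46784893-46784922 on the minus strand. A match describes the letters in a window and is not evidence of binding, and a window without one says nothing about the factor.

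Values are deposited scores, the same set of numbers on every array, from 0 to 4.99, with the median at 0.73 and the 90th percentile at 1.71. A score thus reflects only the rank of a probe set among those of its array. The values seem to be logarithms of an unknown base, so changes are differences in score units and not folds. Changes are BR minus PT from a limma fit of 4 group means, ± the standard error, with Benjamini-Hochberg adjustment over all tested genes, and a gene was called at an adjusted p under 0.05. The scores of 2 different genes are not compared, since probe sets differ in brightness.

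Arrays correlated at 0.932 to 0.958 within groups and 0.892 to 0.942 between groups. The beta-actin 5′ minus 3′ score, a sign of RNA quality, ran from -1.25 to -0.58 in HBL2 PT, -1.04 to -0.69 in HBL2 BR, -0.82 to -0.70 in JEKO PT and -1.01 to -0.76 in JEKO BR. All 5 B cell markers with a probe set, and the mantle cell markers CCND1 and SOX11, were at or above the array median on every array, while CD5, the third mantle cell marker, was on 4. None of the 7 T and NK cell or 3 myeloid markers was, though CD3E was on 7 arrays. Of 5 stromal and epithelial markers, COL1A1 was on all 10 arrays. Of 2 erythroid markers neither was on every array, but HBB was on 9. The median cut thus does not by itself separate cell types. The summed score of the B cell markers was 11.2 to 12.1 in HBL2 PT and 10.2 to 10.99 in HBL2 BR, without overlap, and CD79A (-0.35, limma adjusted p = 0.00098) and CD79B (-0.25, 0.017) fell there. It was 11.5 to 11.7 in JEKO PT and 11.8 to 11.9 in JEKO BR, where CD22 rose (0.35, 0.042). Without a call in JEKO, CD79A (-0.092), CD79B (-0.13) and PAX5 (-0.014) were lower in BR cells and MS4A1 (0.096) was higher. The summed score of 5 plasma cell markers was 7.88 to 8.29 in HBL2 PT and 8.16 to 8.83 in HBL2 BR, and 7.09 to 7.24 in JEKO PT and 7.86 to 7.97 in JEKO BR. The plasma cell sums did not overlap in JEKO, where SDC1 rose (0.50, limma adjusted p = 0.024). Without a call in JEKO, JCHAIN was lower in BR cells (-0.38, limma adjusted p = 0.056). PRDM1 (0.14), IRF4 (0.25) and XBP1 (0.25) were higher there, also without a call. In HBL2, where the sums overlapped, SDC1 (0.39, 0.013), PRDM1 (0.38, 0.00089), IRF4 (0.43, 0.0010) and XBP1 (0.21, 0.042) rose and JCHAIN fell (-1.08, 4.4e-07). The part of these marker shifts in the changes below was not tested in either line.

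Most members scored above the array median in all 4 groups. Of the 42 measured members, 38 lay at or above the array median on all 10 arrays, and ATF4 itself had a mean at the 99.1st percentile of all probe sets. The exceptions were ATF3 at 9 arrays, the lipoprotein receptor VLDLR at 6, the secreted glycoprotein STC2 at 3, and NUPR1. STC2 reached the median only on JEKO PT replicate 2 and both JEKO BR arrays, so it passed the filter through JEKO.

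In HBL2, 6 members rose in BR cells, 1 fell and 34 did not pass the test. Among all tested genes 11.8% were called, 4.91% higher and 6.86% lower, against 14.6% and 2.44% of the members. The risers were the stress regulators ATF3 and CHAC1, the asparagine synthetase ASNS, and the tRNA synthetases WARS1, TARS1 and GARS1, while the amino acid transporter SLC38A2 fell. The median change over the 41 members was 0.088 against -0.00099 over all genes, and 30 of 41 changes were above 0 (73.2%, against 49.7% of all genes). At an unadjusted p under 0.05, 17 members differed. The share of all genes at that threshold was not taken, so nothing is drawn from this count. The count of risers was 3 without HBL2 BR replicate 2, with 1118 genes called in all, and 0 when scores were replaced by percentile ranks, with 1284 called in all. HBL2 PT replicate 1, with the lowest beta-actin score (-1.25), was the highest PT array for 26 of 41 members, against 39.7% of all genes. HBL2 PT replicate 2 was the highest for 2, against 25.1%. HBL2 BR replicate 3 was the lowest BR array for 22, against 32.3%.

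In JEKO, 3 members rose in BR cells, none fell and 38 did not pass the test. Among all tested genes 4.28% were called, 2.56% higher and 1.72% lower, against 7.32% and 0% of the members. The risers were ATF3, ATF5 and DDIT4, all regulators or stress effectors, and no enzyme, transporter or synthetase of the list was called. At an unadjusted p under 0.05, 10 members differed, again without a share of all genes to set beside the count. The median change was 0.088 against 0.012 over all genes, and again 30 of 41 changes were above 0 (73.2%, against 53.4%). The 10, the median and the 30 include STC2, which passed the filter through JEKO arrays alone and supports nothing here. The count of risers was 0 without JEKO PT replicate 1 or without JEKO BR replicate 2, and 1 without JEKO BR replicate 1, with 208, 120 and 281 genes called in all. JEKO BR replicate 2 was the higher BR array for 33 of the 41 members, against 54.1% of all genes, and it had the lower beta-actin and GAPDH 5′ minus 3′ scores of the pair (-1.01 and -0.64). The 3 risers were called with the beta-actin score as a covariate, and none was called without the 3 arrays of lowest beta-actin score, 1 of which is JEKO BR replicate 2.

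**Figure D1:**
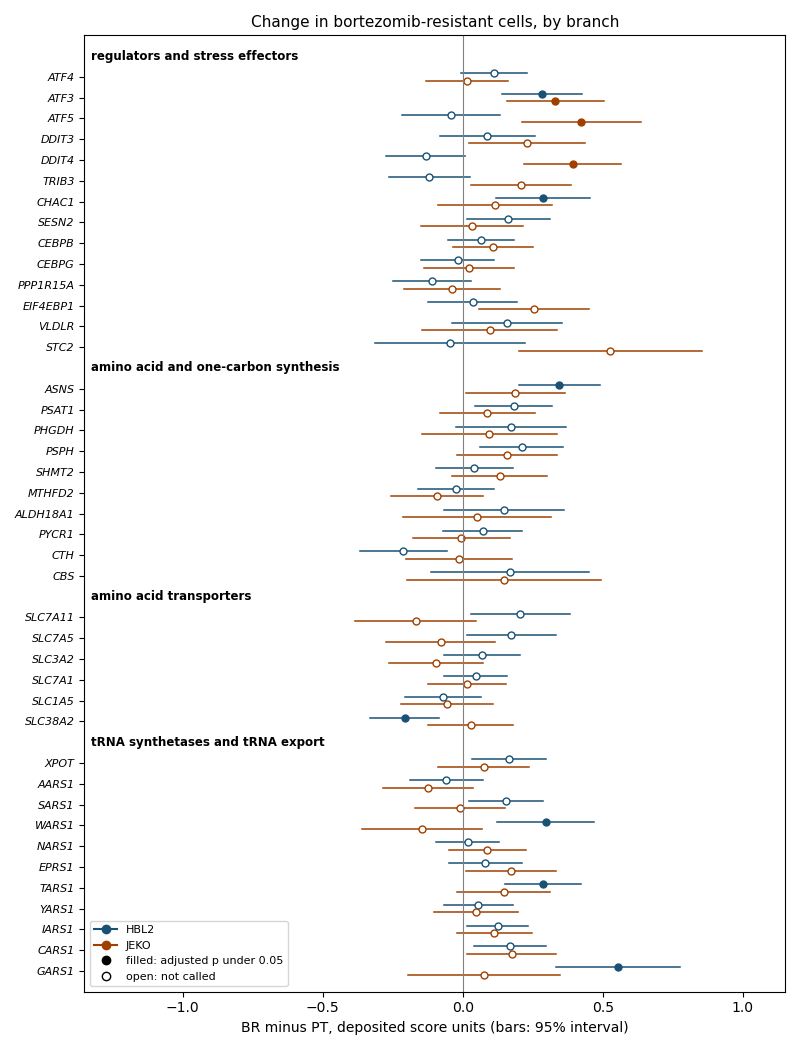
Change in BR against PT cells for each tested member, in deposited score units on the x axis, with HBL2 in blue and JEKO in orange. Points are limma estimates, bars are 95% intervals, and filled points have an adjusted p under 0.05. The 7 called HBL2 members include 3 synthetases and ASNS, whereas the 3 called JEKO members all lie in the regulator branch.

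The regulators and stress effectors come first. ATF4 scored 3.03, 2.92 and 2.93 on the HBL2 PT arrays and 3.07, 3.11 and 3.04 on the HBL2 BR arrays. All HBL2 BR arrays lay above all PT arrays, but only just, since the lowest BR score was 3.04 and the highest PT score 3.03. The change of 0.11 ± 0.056 did not pass the test (limma adjusted p = 0.25), and its 95% interval ran from -0.0074 to 0.23. In JEKO, ATF4 scored 2.63 and 2.60 in PT and 2.58 and 2.68 in BR cells, with overlapping groups. The JEKO change was 0.014 ± 0.069 (limma adjusted p = 0.95; 95% interval -0.13 to 0.16). ATF4 has 1 probe set of its own. Its HBL2 change was called only when arrays were weighted by their quality (limma adjusted p = 0.039).

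ATF3, a stress-induced repressor that ATF4 activates, was the only member called in both lines. It scored 0.93, 0.95 and 1.01 in HBL2 PT and 1.21, 1.29 and 1.23 in HBL2 BR. In JEKO it scored 0.64 and 0.78 in PT and 1.01 and 1.07 in BR. BR arrays lay above PT arrays in each line with no overlap. The change was 0.28 ± 0.067 in HBL2 (limma adjusted p = 0.0098) and 0.33 ± 0.082 in JEKO (limma adjusted p = 0.031), and the difference between the lines was -0.047 ± 0.11 (95% interval -0.27 to 0.18). Both calls rest on 1 of 3 probe sets. The other 2 changed by 0.073 and -0.036 in HBL2 and by 0.097 and -0.094 in JEKO, none called. The HBL2 call was lost without HBL2 BR replicate 2 (limma adjusted p = 0.063) and without the 3 arrays of lowest beta-actin score (0.077). The JEKO call was lost without any of the 4 JEKO arrays (limma adjusted p from 0.052 without JEKO PT replicate 2 to 0.24 without JEKO PT replicate 1 or BR replicate 2) and without HBL2 BR replicate 2 (0.051).

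ATF5, a relative of ATF4 that is translated under the same eIF2 control, rose in JEKO. It scored 1.74 and 2.0 in JEKO PT and 2.19 and 2.40 in JEKO BR, against 2.48, 2.26 and 2.34 in HBL2 PT and 2.41, 2.31 and 2.23 in HBL2 BR. The JEKO PT arrays were the lowest of the 10, and the HBL2 groups overlapped. The change was 0.42 ± 0.10 in JEKO (limma adjusted p = 0.025) and -0.042 ± 0.082 in HBL2 (limma adjusted p = 0.82). The difference, HBL2 minus JEKO, was -0.47 ± 0.13 (limma adjusted p = 0.034). The next brightest ATF5 probe set gave 0.40 in JEKO (limma adjusted p = 0.042 over every probe set). The JEKO call was lost without JEKO PT replicate 1 (limma adjusted p = 0.28) or BR replicate 2 (0.30). The difference was lost without either of these arrays (0.21 each) and without HBL2 PT replicate 1, BR replicate 2 or BR replicate 3 (0.057 to 0.070).

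DDIT4, also called REDD1, an inhibitor of the growth kinase mTORC1, was higher in BR cells of JEKO and not of HBL2. It scored 2.08 and 2.27 in JEKO PT and 2.55 and 2.59 in JEKO BR. In HBL2 it scored 2.32, 2.30 and 2.22 in PT and 2.13, 2.25 and 2.07 in BR cells. The JEKO BR arrays were the highest of all 10, and the HBL2 groups overlapped with the BR mean the lower. The change was 0.39 ± 0.081 in JEKO (limma adjusted p = 0.013) and -0.13 ± 0.067 in HBL2 (limma adjusted p = 0.25). The difference was -0.52 ± 0.11 (limma adjusted p = 0.0050), and it passed the test in 19 of 20 alternatives, all but that without the 3 arrays of lowest beta-actin score (0.074). The JEKO call itself was lost without JEKO PT replicate 1 (limma adjusted p = 0.18), BR replicate 1 (0.062) or BR replicate 2 (0.14).

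CHAC1, which degrades glutathione and is induced late in the response, rose in HBL2. It scored 1.30, 1.08 and 1.01 in HBL2 PT and 1.41, 1.46 and 1.38 in HBL2 BR, and in JEKO 0.94 and 0.87 in PT and 0.92 and 1.13 in BR. The HBL2 groups did not overlap, with PT replicate 1 closest to the BR arrays, while the JEKO groups overlapped. The change was 0.29 ± 0.079 in HBL2 (limma adjusted p = 0.025) and 0.11 ± 0.096 in JEKO (limma adjusted p = 0.60). The HBL2 call was lost without HBL2 PT replicate 2 (0.091), PT replicate 3 (0.087), BR replicate 1 (0.068) or BR replicate 2 (0.10). The difference between the lines was 0.17 ± 0.12 and was not called (limma adjusted p = 0.48).

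The other tested regulators were called in neither line. DDIT3, which encodes the pro-death factor CHOP, changed by 0.088 in HBL2 and 0.23 in JEKO. TRIB3, a pseudokinase that feeds back on ATF4, changed by -0.12 and 0.21, with a difference of -0.33 ± 0.11 (limma adjusted p = 0.074). EIF4EBP1, the translation repressor 4E-BP1, changed by 0.036 and 0.25, and SESN2, which restrains mTORC1 when leucine is short, by 0.16 and 0.034. STC2 changed by 0.53 ± 0.15 in JEKO, with scores of 0.51 and 0.82 in PT and 1.08 and 1.30 in BR. It did not pass the test (limma adjusted p = 0.069), and its other probe set changed by 0.052. Since STC2 passed the filter through JEKO arrays alone, its JEKO change supports nothing. The C/EBP partners CEBPB and CEBPG changed by 0.064 and -0.018 in HBL2 and by 0.11 and 0.021 in JEKO. PPP1R15A, also called GADD34, which brings phosphatase to eIF2, had means of 1.17 ± 0.085 and 1.06 ± 0.053 in HBL2 PT and BR (SD, n = 3 each) and 1.08 ± 0.063 and 1.04 ± 0.021 in JEKO (SD, n = 2 each). VLDLR changed by 0.16 in HBL2 and 0.095 in JEKO. In this branch 8 of 14 HBL2 changes and 13 of 14 JEKO changes were above 0, with medians of 0.050 and 0.16. The JEKO count and median include STC2.

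Among the 10 synthesis genes, ASNS rose in HBL2, and no other change passed the test in either line. ASNS, which makes asparagine from aspartate and glutamine, scored 2.20, 2.17 and 2.14 in HBL2 PT and 2.53, 2.61 and 2.41 in HBL2 BR. In JEKO it scored 1.74 and 1.94 in PT and 1.98 and 2.08 in BR. Neither line's groups overlapped. The HBL2 change was 0.35 ± 0.068 (limma adjusted p = 0.0027) and stayed between 0.30 and 0.41 in every alternative fitted in score units, with the call lost only with percentile ranks (0.15). The JEKO change was 0.19 ± 0.083 (limma adjusted p = 0.25), and the difference of 0.16 ± 0.11 was not called (0.44).

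The serine pathway genes did not pass the test. PHGDH, which opens serine synthesis, changed by 0.17 in HBL2 and 0.095 in JEKO, PSAT1, the next enzyme, by 0.18 and 0.088, and PSPH, the last, by 0.21 and 0.16. All 6 changes were above 0, and the smallest adjusted p among them was 0.061, for PSPH in HBL2. For PSAT1 the HBL2 BR arrays (2.42, 2.40 and 2.22) lay above the PT arrays (2.21, 2.13 and 2.16), and PSPH did not overlap in either line. With the beta-actin score as a covariate PHGDH and PSPH were called higher in HBL2. PSPH was also called there in 5 further alternatives, which were the 75th percentile filter, array weights, the median over probe sets, leaving out those ending in _x_at or _s_at, and leaving out HBL2 PT replicate 3, and PHGDH without HBL2 PT replicate 1. In JEKO PSPH was called with the median over probe sets. PSAT1 was called higher in HBL2 with array weights, without the 3 arrays of lowest beta-actin score and without HBL2 BR replicate 3. Of the mitochondrial folate enzymes, SHMT2 changed by 0.042 and 0.13 and MTHFD2 by -0.024 and -0.093.

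The proline and sulfur enzymes gave no call either. ALDH18A1, which opens proline synthesis, changed by 0.15 in HBL2 and 0.051 in JEKO, and PYCR1, which closes it, by 0.071 and -0.0053. CTH, the cystathionine lyase that yields cysteine, had the lowest HBL2 change of all members, -0.21 ± 0.073 (limma adjusted p = 0.075), with scores of 1.17, 1.21 and 1.17 in PT and 1.06, 0.91 and 0.95 in BR that did not overlap. CBS, which makes cystathionine and has a near-identical copy, CBSL, that its probe set may also read, scored 1.81, 1.66 and 1.04 in HBL2 PT against 1.68, 1.70 and 1.62 in BR. Its PT scores fell as the beta-actin scores of those arrays rose (-1.25, -0.86 and -0.58), and those of PHGDH fell likewise (2.13, 1.94 and 1.64). With beta-actin as a covariate PHGDH was called higher in HBL2 BR and CBS was not.

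SLC38A2, a carrier of small neutral amino acids also called SNAT2, was the only transporter called and the only member that fell. It scored 2.77, 2.85 and 2.95 in HBL2 PT and 2.63, 2.68 and 2.64 in HBL2 BR, and 2.64 and 2.71 in JEKO PT and 2.68 and 2.73 in JEKO BR. The HBL2 groups did not overlap, and the HBL2 BR scores stood at the level of JEKO. The HBL2 change was -0.21 ± 0.058 (limma adjusted p = 0.028), and the JEKO change was 0.028 ± 0.071 (0.89). Its probe set is of a kind that can bind other transcripts, and its other 2 probe sets changed by -0.21 and -0.18 in HBL2 without a call. In JEKO these 2 changed by -0.13 and -0.11, also without a call, opposite in sign to the one used. The HBL2 call was lost without any of the HBL2 arrays except PT replicate 1 (limma adjusted p from 0.063 to 0.10).

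The other 5 transporters did not pass the test. SLC7A11, the cystine importer of system xc-, scored 1.13, 1.28 and 1.36 in HBL2 PT and 1.61, 1.51 and 1.26 in BR, a change of 0.21 ± 0.084 (limma adjusted p = 0.14), and it changed by -0.17 ± 0.10 in JEKO (0.44). A second SLC7A11 probe set gave 0.26 in HBL2 (limma adjusted p = 0.032 over every probe set) and -0.15 in JEKO. The difference between the lines on the first probe set was 0.37 ± 0.13 (0.094). SLC7A5, the leucine carrier LAT1, changed by 0.17 and -0.079, and its partner chain SLC3A2 by 0.070 and -0.095. SLC7A1, an arginine carrier, changed by 0.046 and 0.014, and SLC1A5, a glutamine carrier, by -0.071 and -0.056. The branch had a median change of 0.058 in HBL2 and -0.067 in JEKO, the only branch below 0 in either line.

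The tRNA branch held the largest HBL2 change. GARS1, the glycyl-tRNA synthetase, scored 2.72, 2.59 and 2.12 in HBL2 PT and 3.02, 3.06 and 3.01 in HBL2 BR. In JEKO it scored 2.30 and 2.28 in PT and 2.38 and 2.36 in BR. Every HBL2 BR array lay above every HBL2 PT array, and the PT arrays were far more spread than the BR arrays (SD 0.31 against 0.030, n = 3 each). The HBL2 change was 0.55 ± 0.10 (limma adjusted p = 0.0019), the JEKO change 0.077 ± 0.13 (0.83) and the difference 0.48 ± 0.17 (0.089). The PT scores fell as the beta-actin scores of those arrays rose (-1.25, -0.86 and -0.58). With the beta-actin score as a covariate the change was 0.58 (limma adjusted p = 0.00014), and without HBL2 PT replicate 3 it was 0.38 (0.00027).

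TARS1, the threonyl-tRNA synthetase, scored 2.17, 2.37 and 2.38 in HBL2 PT and 2.60, 2.64 and 2.53 in HBL2 BR, and 2.22 and 2.20 in JEKO PT and 2.35 and 2.37 in JEKO BR. BR arrays lay above PT arrays in both lines. The change was 0.29 ± 0.064 in HBL2 (limma adjusted p = 0.0067) and 0.15 ± 0.078 in JEKO (0.37), and the difference of 0.14 ± 0.10 was not called (0.48). The HBL2 call held without each array in turn, and it was lost with the median over 2 probe sets (0.28), the other of which had a mean at the 34.2nd percentile.

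WARS1, the tryptophanyl-tRNA synthetase, which interferon also induces, rose in HBL2 and was lower without a call in JEKO. It scored 1.85, 1.59 and 1.56 in HBL2 PT and 2.09, 1.97 and 1.82 in HBL2 BR. In JEKO it scored 1.51 and 1.63 in PT and 1.39 and 1.47 in BR. The HBL2 groups overlapped, since PT replicate 1 scored above BR replicate 3, and in JEKO both BR arrays lay below both PT arrays. The change was 0.30 ± 0.082 in HBL2 (limma adjusted p = 0.026) and -0.14 ± 0.10 in JEKO (0.51). The difference was 0.44 ± 0.13 (0.045). The other probe set changed by 0.25 in HBL2 (0.059 over every probe set) and -0.086 in JEKO. The HBL2 call was lost without HBL2 PT replicate 2 (0.11), PT replicate 3 (0.080), BR replicate 1 (0.14) or BR replicate 2 (0.083). The difference was lost without any of these or any JEKO array (0.063 to 0.17).

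The remaining 7 synthetases and the exporter XPOT, which carries tRNA out of the nucleus, were not called. In HBL2, changes of the synthetases ran from -0.058 for AARS1 to 0.17 for CARS1, and XPOT changed by 0.16. BR arrays lay above PT arrays without overlap for XPOT, IARS1 and CARS1 in HBL2. Cysteinyl-tRNA synthetase CARS1 changed by 0.17 in each line, and its second probe set gave 0.33 in HBL2 (limma adjusted p = 0.0030 over every probe set) but -0.056 in JEKO. A second probe set of the seryl synthetase SARS1 gave 0.22 in HBL2 (0.038). In JEKO the synthetases ran from -0.12 for AARS1 to 0.17 for CARS1. EPRS1, the glutamyl-prolyl synthetase, changed by 0.081 and 0.17, and NARS1, for asparagine, by 0.017 and 0.088. YARS1, for tyrosine, changed by 0.056 and 0.047. In this branch 10 of 11 HBL2 changes and 8 of 11 JEKO changes were above 0, with medians of 0.15 and 0.077.

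**Figure D2:**
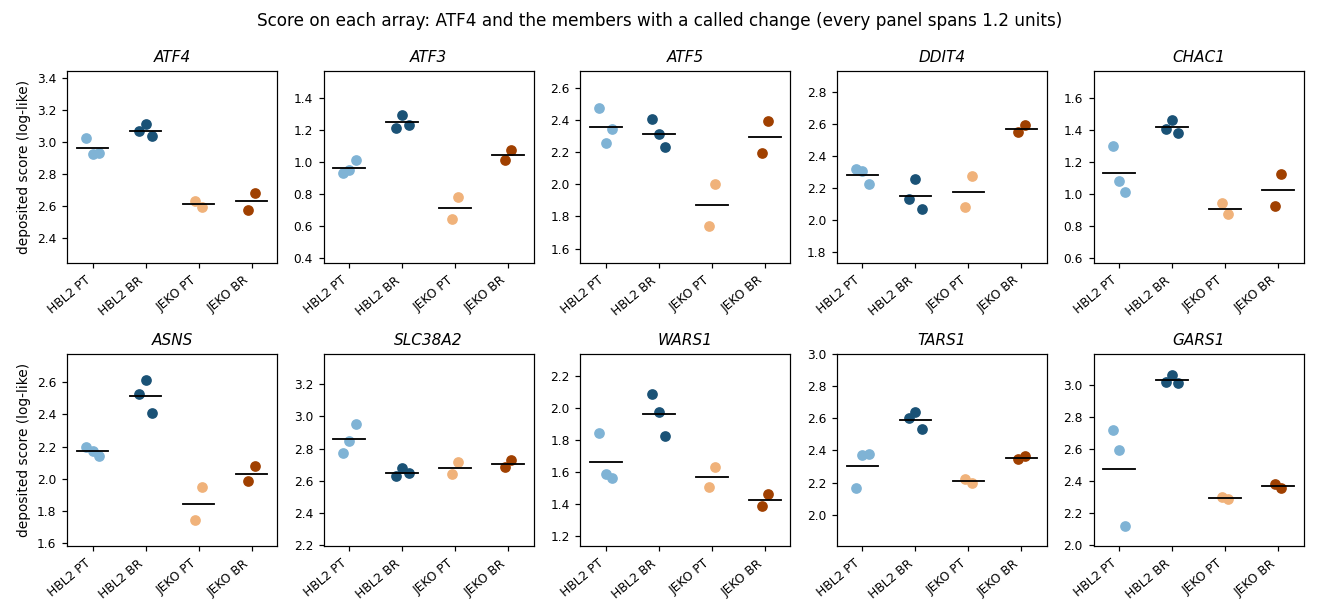
Deposited score on each array for ATF4 and the 9 members with a called change, by group on the x axis. Each point is 1 array, lines are group means, and every y axis spans 1.2 units. ATF3 is higher in BR cells of both lines, ASNS, TARS1, GARS1 and CHAC1 separate most in HBL2, and ATF5 and DDIT4 separate in JEKO.

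Counted by whole groups of arrays, all BR arrays lay above all PT arrays for 12 of 41 members in HBL2 and below for 2, against 12.8% and 14.5% of all genes, of which 11.8% were called. In JEKO, with 2 arrays a group, 20 members lay above and 4 below, against 28.3% and 22.5% of all genes, of which 4.28% were called. The 20 include STC2, which entered the test through its JEKO arrays alone and supports nothing here. Both changes were above 0 for 24 members and below 0 for 5, while 6 had a change above 0 in HBL2 only and 6 in JEKO only. STC2 is among those above 0 in JEKO only. Of all 14529 genes, 3824 were above 0 in both lines and 3376 below in both. Another 3395 were above 0 in HBL2 only and 3932 in JEKO only. With 30 of 41 member changes above 0 in each line, many would share a sign even if the changes were unrelated. Across the 41 members, the HBL2 and JEKO changes, which share no array, had a Pearson correlation of -0.049, and across all genes of -0.0091. Members are not independent of each other, so this is given as a description.

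The test of the difference between the lines called 3 members, WARS1 as higher in HBL2 and ATF5 and DDIT4 as higher in JEKO. Among all tested genes 8.71% were called, 2.95% with the HBL2 change higher and 5.76% with it lower, so the members' shares, 2.44% and 4.88%, lay near the background. The 6 other members called in 1 or both lines did not differ between the lines by that test. For ASNS the 95% interval of the difference was -0.071 to 0.39, for GARS1 0.13 to 0.83 before adjustment, for TARS1 -0.075 to 0.36 and for CHAC1 -0.092 to 0.44. SLC38A2 had an interval of -0.43 to -0.041 before adjustment (limma adjusted p = 0.13). The GARS1 difference was called in 5 alternatives, with array weights, a replicate block or a beta-actin covariate and without HBL2 PT replicate 1 or HBL2 PT replicate 3, and missed the threshold as fitted here. For these genes the fit used here did not show the HBL2 and JEKO changes to differ, nor to be alike. The lines also have unequal numbers of arrays, 6 and 4.

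The lines differed in their standing levels. In PT cells 14 members were higher in HBL2 than in JEKO and 2 lower, 34.1% and 4.88% of the tested members, where 23.1% of all genes were called, 13.9% higher and 9.25% lower. In BR cells 19 were higher and 4 lower, 46.3% and 9.76%, where 28.1% of all genes were called, 14.0% higher and 14.1% lower. These comparisons use the same arrays as the changes above and are not independent of them. Fewer members were called higher in PT cells without JEKO PT replicate 1 or 2, and fewer of all genes were called. Without JEKO BR replicate 1 fewer members were called higher in BR cells, again with fewer of all genes called. In these fits the remaining JEKO array of the group stood alone.

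ATF4 was among the higher genes in both states, by 0.34 ± 0.063 in PT (limma adjusted p = 0.00082) and 0.44 ± 0.063 in BR cells (6.4e-05), and these calls held in each alternative run. Its 6 HBL2 scores (2.92 to 3.11) all lay above its 4 JEKO scores (2.58 to 2.68). The serine enzymes PHGDH, PSAT1 and PSPH were higher in HBL2 in PT (0.35, 0.39 and 0.34) and in BR cells (0.43, 0.49 and 0.39), as were ASNS (0.33 and 0.48), PYCR1 (0.22 and 0.30) and CBS (0.48 and 0.50). SHMT2, the mitochondrial serine hydroxymethyltransferase, stood the other way, with differences of -0.37 in PT and -0.46 in BR cells. NARS1 (0.56 and 0.49), EPRS1 (0.52 and 0.43), CARS1 (0.32 and 0.31) and YARS1 (0.20 and 0.21) were higher in HBL2 in both states. The PT calls of PYCR1, YARS1, CBS and PHGDH were lost in 11 of 20, 10 of 21, 8 of 21 and 6 of 21 alternatives, among them those without JEKO PT replicate 1, JEKO PT replicate 2 or HBL2 PT replicate 1. Those of PYCR1 and YARS1 were also lost without HBL2 BR replicate 1 or 2, those of PYCR1, CBS and PHGDH without HBL2 PT replicate 2, and that of PYCR1 without either JEKO BR array. The PT calls of ASNS and CARS1 were lost without JEKO PT replicate 1 and that of PSPH without JEKO PT replicate 2. The BR calls of PHGDH, PYCR1, CBS, CARS1 and YARS1 were lost without JEKO BR replicate 1, that of CBS also without JEKO BR replicate 2 and that of YARS1 also without HBL2 BR replicate 2 or 3.

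Other members differed in 1 state by the test. ATF5 was higher in HBL2 in PT cells (0.49 ± 0.091, limma adjusted p = 0.0010), and in BR cells the lines stood at 2.32 ± 0.088 (SD, n = 3) and 2.29 ± 0.14 (SD, n = 2), a difference of 0.023 ± 0.091 (95% interval -0.17 to 0.22). ATF3 (0.25) and CEBPG (0.23) were called higher in HBL2 in PT cells, and XPOT lower (-0.25). These 3 calls were lost without JEKO PT replicate 1, those of CEBPG and XPOT also without JEKO PT replicate 2, and that of CEBPG also without HBL2 PT replicate 3. In BR cells the transporters SLC7A11 (0.52), SLC7A5 (0.45) and SLC3A2 (0.30), the synthetases GARS1 (0.66), WARS1 (0.54) and TARS1 (0.24), and CHAC1 (0.39) and SESN2 (0.27) were called higher in HBL2. DDIT3 (-0.34) and DDIT4 (-0.42) were called lower in HBL2 BR than in JEKO BR cells. STC2 (-0.77) was too, but it entered the test through its JEKO arrays alone, so its call among the 4 lower ones supports nothing. The BR calls of CHAC1, SLC3A2, SESN2 and TARS1 were lost without JEKO BR replicate 1, and those of DDIT3, SESN2 and TARS1 without JEKO BR replicate 2. That of SESN2 was also lost without HBL2 BR replicate 3 and that of TARS1 without HBL2 BR replicate 1 or 2. Of the members called here in BR cells, DDIT4 and WARS1 had a called difference between the lines' changes, as had ATF5, called in PT cells.

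**Figure D3:**
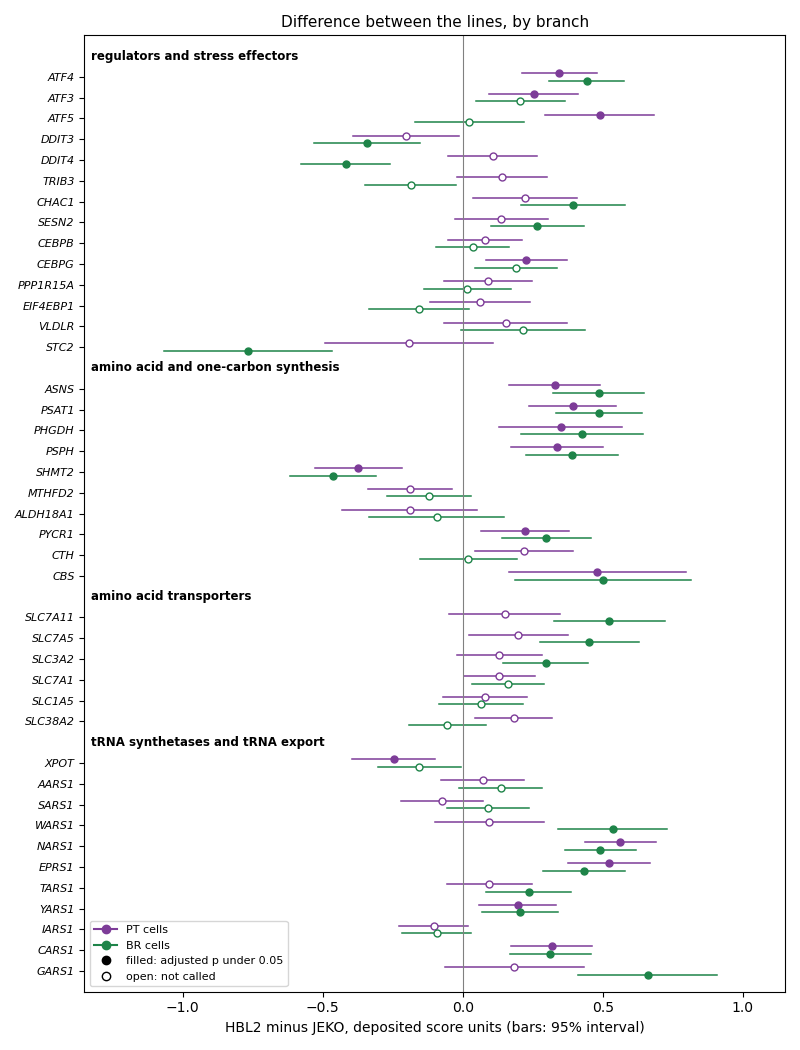
Difference between the lines, HBL2 minus JEKO, for each tested member in PT cells (purple) and in BR cells (green), in deposited score units on the x axis. Points are limma estimates, bars are 95% intervals, and filled points have an adjusted p under 0.05. ATF4, ASNS and the serine enzymes lie to the right of 0 in both states, and SHMT2 to the left in both.

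The members with and without the promoter element were set side by side as a description. Of the 13 tested members with a match, 5 rose in HBL2, with a median change of 0.12 over the 13. Of the 22 tested members with a promoter entry and no match, 1 rose (WARS1) and 1 fell (SLC38A2), with a median of 0.0996. In JEKO, 1 of the 13 rose (ATF3), with a median of 0.088, and 2 of the 22 rose (ATF5 and DDIT4), with a median of 0.081. Among all tested genes 4.91% rose in HBL2 and 2.56% in JEKO, and the members with and without a match were not tested against each other. Of the members with a match and no call, NARS1 changed by 0.017, SLC7A1 by 0.046, SLC1A5 by -0.071 and AARS1 by -0.058 in HBL2.

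The probe sets of a gene mostly told the same story in HBL2 and less so in JEKO. The 25 members with several probe sets had 39 others, of which 20, from 16 genes, lay at or above the median on every array. Their change had the sign of the one used for 19 of 20 in HBL2 and 11 of 20 in JEKO. When every probe set was tested separately, each of the 6 rises and the fall in HBL2 and the 3 rises in JEKO was called again on the probe set used.

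The machinery that sets ATF4 translation was read from a list of its own. Of 19 tested genes for the eIF2 kinases, eIF2, eIF2B and the eIF2 phosphatase, none was called in HBL2, where 11.8% of all genes were, and 3 fell in JEKO with none higher, where 1.72% of all genes fell and 2.56% rose. EIF2AK4, which encodes GCN2, scored 1.59 and 1.65 in JEKO PT and 1.36 and 1.28 in JEKO BR, a change of -0.30 ± 0.075 (limma adjusted p = 0.034). PPP1CA, a catalytic phosphatase subunit, changed by -0.53 ± 0.093 (0.0037) and EIF2B2, a subunit of the eIF2 exchange factor, by -0.25 ± 0.066 (0.044). The difference between the lines was called for EIF2AK4 (0.39 ± 0.096, limma adjusted p = 0.018) and PPP1CA (0.48 ± 0.12, 0.020).

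The neighbouring gene lists were short, and their counts stand beside a background of 11.8% of all genes called in HBL2 and 4.28% in JEKO. None of 8 other cytosolic synthetases and scaffold genes and none of 15 mitochondrial synthetases was called in either line, and the median changes were 0.12 and 0.059 in HBL2 and 0.044 and -0.015 in JEKO. Of 18 other amino acid and one-carbon enzymes, the aspartate aminotransferase GOT2 rose in HBL2 (0.28), and in JEKO the ornithine aminotransferase OAT rose (0.30) and the thymidylate synthase TYMS fell (-0.32). Of 12 other transporters, SLC7A7, a carrier of cationic amino acids, fell in HBL2 and rose in JEKO. It scored 1.40 to 1.45 in HBL2 PT and 0.98 to 1.1 in BR (change -0.39 ± 0.066, limma adjusted p = 0.00078), and 1.23 and 1.30 in JEKO PT and 1.55 and 1.75 in BR (0.39 ± 0.081, 0.013). Its difference between the lines was -0.78 ± 0.10 (limma adjusted p = 0.00022).

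Of 25 tested genes also known as ATF4 targets or partners, 2 rose and 2 fell in HBL2, and 2 rose in JEKO. With 4.91% of all genes higher and 6.86% lower in HBL2, and 2.56% higher in JEKO, so few calls cannot be told from the background. NIBAN1 (0.31) and the mitochondrial protease gene LONP1 (0.18) rose in HBL2, while BTG1, an antiproliferative gene, fell from 2.33 to 2.38 in PT to 1.66 to 1.76 in BR (-0.64 ± 0.063, limma adjusted p = 3.3e-06), and NFE2L2, which encodes the antioxidant regulator NRF2, fell (-0.26). In JEKO the angiogenic factor VEGFA (0.34) and ERO1A, which oxidises proteins in the endoplasmic reticulum (0.27), rose. The median change of this list was -0.080 in HBL2 and 0.088 in JEKO, so in HBL2 it had the opposite sign to the members' median. Of 20 genes of amino acid sensing to mTORC1, RRAGD rose (0.34) and DEPDC5 fell (-0.36) in HBL2, and none was called in JEKO. There 4 had an unadjusted p under 0.05, a threshold at which the share of all genes was not taken.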

How the data were processed

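Total RNA, biotin-labelled, was hybridised to 10 Affymetrix arrays, per the labels' protocols. The deposited values are a score for each of 54675 probe sets. Per the submitters' processing notes MAS5 was used, with no version named, and what followed is not given in the sources used here. Sorted, the deposited scores were identical across arrays (largest difference 0), so a shift of most genes one way cannot be seen. Groups came from the sample titles. Each gene took its brightest single-symbol probe set, kept if at or above the 50th percentile on at least 2 arrays. The fit used limma 3.58.1 under R 4.3.3 (group means, contrasts and eBayes with intensity trend, two-sided, 6 residual degrees of freedom), a procedure tested on simulated data. A planned log2 step with a pseudocount was left out, since the scores already look logarithmic. The labels give no batch, scan date or depth, and the number of arrays limits precision. Members, gene lists and tests were chosen with earlier results of these data known. Members whose BR minus PT change was called in a line or differed between the lines, and ATF4, are given on every array, and the rest by changes, means or ranges; genes of other lists are named where called. Promoter sequences are RefSeq's (GRCh38.p14). Alternatives covered the filter, variance model, probe set choice, array weights, each line alone, replicate block, percentile ranks, beta-actin and each array left out.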

Additional observations from a re-analysis of the deposited data

Results flagged for a closer look

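For 3 genes of the ATF4 list the change in HBL2 differed from the change in JEKO by the test of that difference (limma, Benjamini-Hochberg adjusted over 14529 genes, 8.71% of which were called). The differences, HBL2 change minus JEKO change in score units, were -0.465 for ATF5, -0.524 for DDIT4 and 0.441 for WARS1. No group held 4 or more arrays, so single arrays were not tested as outliers.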

How the results depend on the processing

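No called change of a member changed direction in any alternative. Array weights gave 15 higher and 2 lower in HBL2, and 3 higher and 4 lower for the difference between lines. They called 2684 and 1948 genes in all, against 1711 and 1266 in the main fit. Percentile ranks gave 0 and 0 in HBL2, 1 higher in JEKO and 0 and 1 for the difference. Between lines they gave 0 lower in PT cells and 2 lower in BR cells. They called 1284 genes in all in HBL2, 439 in JEKO, 940 for the difference, 2781 in PT cells and 3438 in BR cells. Without _x_at and _s_at probe sets there were 0 lower in HBL2, 0 higher in JEKO and 0 lower for the difference. Between lines there were 7 higher in PT cells and 10 higher in BR cells. ASNS, GARS1, SLC38A2, ATF5 and DDIT4 had no probe set left to test there, so their calls were removed and not retested. Other members, among them PSAT1, EPRS1, PYCR1 and SLC7A5, dropped out too. That setting called 1187 genes in all in HBL2 and 471 in JEKO. No trend gave 0 lower in HBL2 and 0 higher and 1 lower for the difference, and each line alone 0 lower in HBL2. The median over probe sets gave 0 lower in HBL2 and 2 higher and 1 lower for the difference, no filter 0 higher. A beta-actin covariate gave 10 higher in HBL2 and 2 for the difference, and leaving out the 3 arrays of lowest beta-actin 0 higher in JEKO and 2 higher and 0 lower for the difference. Leaving out 1 array in turn gave 3 to 9 higher and 0 to 1 lower in HBL2, 0 to 4 higher in JEKO, 0 to 2 higher and 1 to 3 lower for the difference, 6 to 16 higher and 1 to 3 lower in PT cells, and 10 to 22 higher in BR cells. The number of all genes called also moved with the setting, so a changed count need not be particular to the members. Some counts in JEKO, for the difference and between BR cells include STC2, which entered the test through its JEKO arrays alone. The causes were not tested. Same-numbered HBL2 arrays deviated together with correlations of 0.017, 0.14 and 0.0075, and JEKO arrays with 0.078, so the numbers were not taken to pair the samples. A replicate block gave 2 higher for the difference (GARS1 with WARS1) and changed no count in HBL2 or JEKO. Testing every probe set, chosen after seeing the data, gave 9 and 1 in HBL2 and 3 and 0 in JEKO among the members. With 2 JEKO arrays a group, leaving out 1 assumes that the other varies like the rest.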
